A study of Rattus norvegicus with 6 samples.

Results

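The genes described here encode the machinery that docks, primes and fuses membrane vesicles: synaptotagmins, synaptotagmin-like proteins, syntaxins, syntaxin-binding proteins, VAMPs, SNAP-25 type SNAREs, complexins, synapsins, SV2 glycoproteins and Rab3 GTPases. Members were chosen by symbol alone, as every gene of the deposited count table whose name carries one of the family stems Syt, Sytl, Stx, Stxbp, Vamp, Snap, Cplx, Syn, Sv2 or Rab3 with the numbers of that family. This gave 69 of 29884 genes. One of them, Snap91, is a clathrin adaptor that shares only its symbol with the SNAREs.

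RNA was sequenced from the sciatic nerve of wild type rats with chronic constriction injury (CCI), a model of neuropathic pain in which ligatures compress the nerve. Injured nerve without treatment gave 3 libraries, and injured nerve that received the PLLA-PCL-RVC conduit gave another 3. In the series text the conduit is a piezoelectric device loaded with ropivacaine, an anaesthetic that blocks sodium channels. Every nerve was injured, and the labels used here give no uninjured nerve, no conduit without the drug, no strain, sex or age and no time after injury, so the polymer, the drug and the time cannot be told apart.

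Vesicle fusion is driven by SNARE proteins. A VAMP on the vesicle pairs with a syntaxin and a SNAP-25 type protein on the target membrane, and the coiled complex pulls the membranes together. Munc18 proteins hold syntaxins ready, complexins clamp the partly zipped complex, and calcium-binding synaptotagmins release the clamp when calcium enters. Neurons use one set of family members for transmitter release, while immune, epithelial and glial cells use relatives for granule release, membrane delivery and secretion. Nerve tissue holds axons but not the nuclei of the sensory and motor neurons, so most of its RNA comes from Schwann cells and other non-neuronal cells.

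Promoter sequences of 5 members are shown because they belong to the genes that the results turn on most: the synaptotagmins that changed in opposite directions, the Munc18 gene that fell, and the 2 members that carry the full cyclic AMP response element. Each is the 250 bases upstream of the RefSeq start, 5′ to 3′ on the strand of the gene, from the GRCr8 assembly. Capitals mark TGACG, the core of the response element, and the GC box GGGCGG, on either strand. Syt4 lies on the minus strand at chr18:23320864-23321113, Syt11 on the minus strand at chr2:176529776-176530025, Stxbp2 on the plus strand at chr12:6487076-6487325, Vamp1 on the plus strand at chr4:159698644-159698893 and Syn1 on the plus strand at chrX:3725495-3725744.
Syt4: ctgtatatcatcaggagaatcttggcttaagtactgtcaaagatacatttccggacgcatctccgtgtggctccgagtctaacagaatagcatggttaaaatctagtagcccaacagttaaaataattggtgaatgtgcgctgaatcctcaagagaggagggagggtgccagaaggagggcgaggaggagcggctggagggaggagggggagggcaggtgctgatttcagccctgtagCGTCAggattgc
Syt11: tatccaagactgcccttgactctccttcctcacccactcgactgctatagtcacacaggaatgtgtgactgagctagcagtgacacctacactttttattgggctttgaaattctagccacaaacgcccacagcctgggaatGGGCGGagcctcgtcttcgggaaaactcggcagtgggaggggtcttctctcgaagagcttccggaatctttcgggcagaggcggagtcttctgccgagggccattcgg
Stxbp2: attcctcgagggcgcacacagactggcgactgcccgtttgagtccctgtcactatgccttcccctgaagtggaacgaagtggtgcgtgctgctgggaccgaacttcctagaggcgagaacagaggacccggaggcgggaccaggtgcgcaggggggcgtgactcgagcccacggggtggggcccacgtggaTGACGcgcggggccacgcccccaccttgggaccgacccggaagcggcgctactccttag
Vamp1: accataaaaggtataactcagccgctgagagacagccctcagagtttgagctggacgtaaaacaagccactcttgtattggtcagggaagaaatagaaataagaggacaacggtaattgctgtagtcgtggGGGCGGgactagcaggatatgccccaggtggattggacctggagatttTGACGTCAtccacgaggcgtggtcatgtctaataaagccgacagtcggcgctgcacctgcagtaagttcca
Syn1: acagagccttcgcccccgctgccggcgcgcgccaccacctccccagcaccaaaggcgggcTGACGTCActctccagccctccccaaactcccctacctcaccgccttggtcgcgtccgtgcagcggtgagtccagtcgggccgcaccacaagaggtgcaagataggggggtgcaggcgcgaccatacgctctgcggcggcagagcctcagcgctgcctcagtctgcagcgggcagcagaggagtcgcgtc

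RefSeq promoters were matched for 55 of the 69 members and compared with 33469 promoters of the same length, both strands searched. Members were counted once per gene and the background once per promoter, so the shares are not in the same unit. The full element TGACGTCA was present in 2 of 55 members (3.64%), Vamp1 and Syn1, against 1.59% of all promoters. Its core TGACG, which the full element contains on both strands, was in 15 members (27.3%), against 18.2% of all. The GC box GGGCGG was in 31 members (56.4%), against 30.5%. The AP-1 site TGANTCA was in none of the 55, against 6.34% of all promoters. The E-box CACGTG was in 5 members (9.09%), against 5.59%, and TATAAA was also in 5, against 12.9%. Syt4 has the core at positions -12 to -8 from its start and no GC box in this window, while Syt11 has a GC box at -108 to -103 and no core. In Vamp1 the full element spans -71 to -64. These matches describe letters, not bound sites.

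Libraries held 38401951 to 42225086 counts, of which the members made up 0.155 to 0.196%. Levels are given as CPM, read counts scaled to library size with TMM factors, and levels of different genes are compared only in FPKM, which is per gene length. Scaling by library totals in place of TMM lowered the median log2 fold change of all genes by 0.39, so the scaling matters for members with small changes. The labels place no batch number in both groups, and batch and treatment cannot be told apart. Summed macrophage markers ran from 2837 to 3472 CPM in untreated and from 424 to 754 CPM in conduit libraries, and all 9 were called lower. T and NK cell markers (179 to 268 against 38.6 to 73.1 CPM, 6 of 8 lower) and dividing cell markers (208 to 288 against 11.7 to 20.3 CPM, 6 of 6 lower) were also lower. The myelinating Schwann cell markers Mbp, Pmp22, Prx and Mag were all higher (summed 3885 to 8938 against 62141 to 75772 CPM), and so were the 3 perineurial markers tested (330.3 to 525 against 1999 to 2386 CPM with Lypd2, which was at 0 in all libraries). Summed neuronal and axonal transcripts overlapped between the groups (116 to 236 against 148 to 201 CPM), with 3 of 9 tested higher and 2 lower. Skeletal muscle markers summed to 12171 CPM in the first untreated library and 91.1 CPM in the second, against 5.59 to 11.2 CPM in the other libraries. In bulk tissue, fewer cells of a type and less RNA per cell cannot be told apart, and the part of these shifts in the members' values was not tested.

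Conduit-treated nerve differed from untreated nerve in 27 of the 59 members that passed the filter on low counts. Of these, 21 were higher and 6 lower. The falls included the largest change of the set, in Syt4, and otherwise Stxbp2, Sv2a, Stx3, Vamp5 and Snap23. The rises took in Syt11, both complexins tested, Vamp1 and Vamp2, Rab3a, Syt3, Sv2b, Syn1, Syn3 and Snap25, many of them known from neuronal synapses, and also widely expressed syntaxins and syntaxin-binding proteins.

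The members called made up 45.8% of those tested, against 50.2% of the 15464 genes tested in all. Higher calls made up 35.6% of tested members against 24.0% of all genes, and lower calls 10.2% against 26.2%. The median log2 fold change (conduit minus untreated) was 0.33 over the members and -0.04 over all genes, and its median size was 0.70 and 0.64. Changes of at least 2-fold were called in 14 of the 59 tested members upward and 5 downward. Among all 15464 genes tested they were called in 2261 upward and 2340 downward. Under library totals the split became 11 higher and 16 lower (18.6% and 27.1% of tested members), while all genes also shifted, to 14.8% higher and 42.4% lower. The 11 members still called higher were Cplx1, Cplx2, Rab3a, Snap91, Stxbp3, Sv2b, Syn1, Syt3, Syt11, Vamp1 and Vamp2, and all 6 lower members stayed lower. The calls lost under that scaling include those of Snap25, Stx5, Stx6, Stx16, Stxbp4, Stxbp6, Syn3, Syt9 and Sytl5, as the plot of both scalings shows. The fold changes of 13 members turned from above to below 0 under library totals, none of them called with TMM and 3 of them (Stx2, Stxbp5 and Vamp3) then called lower.

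**Figure D1:**
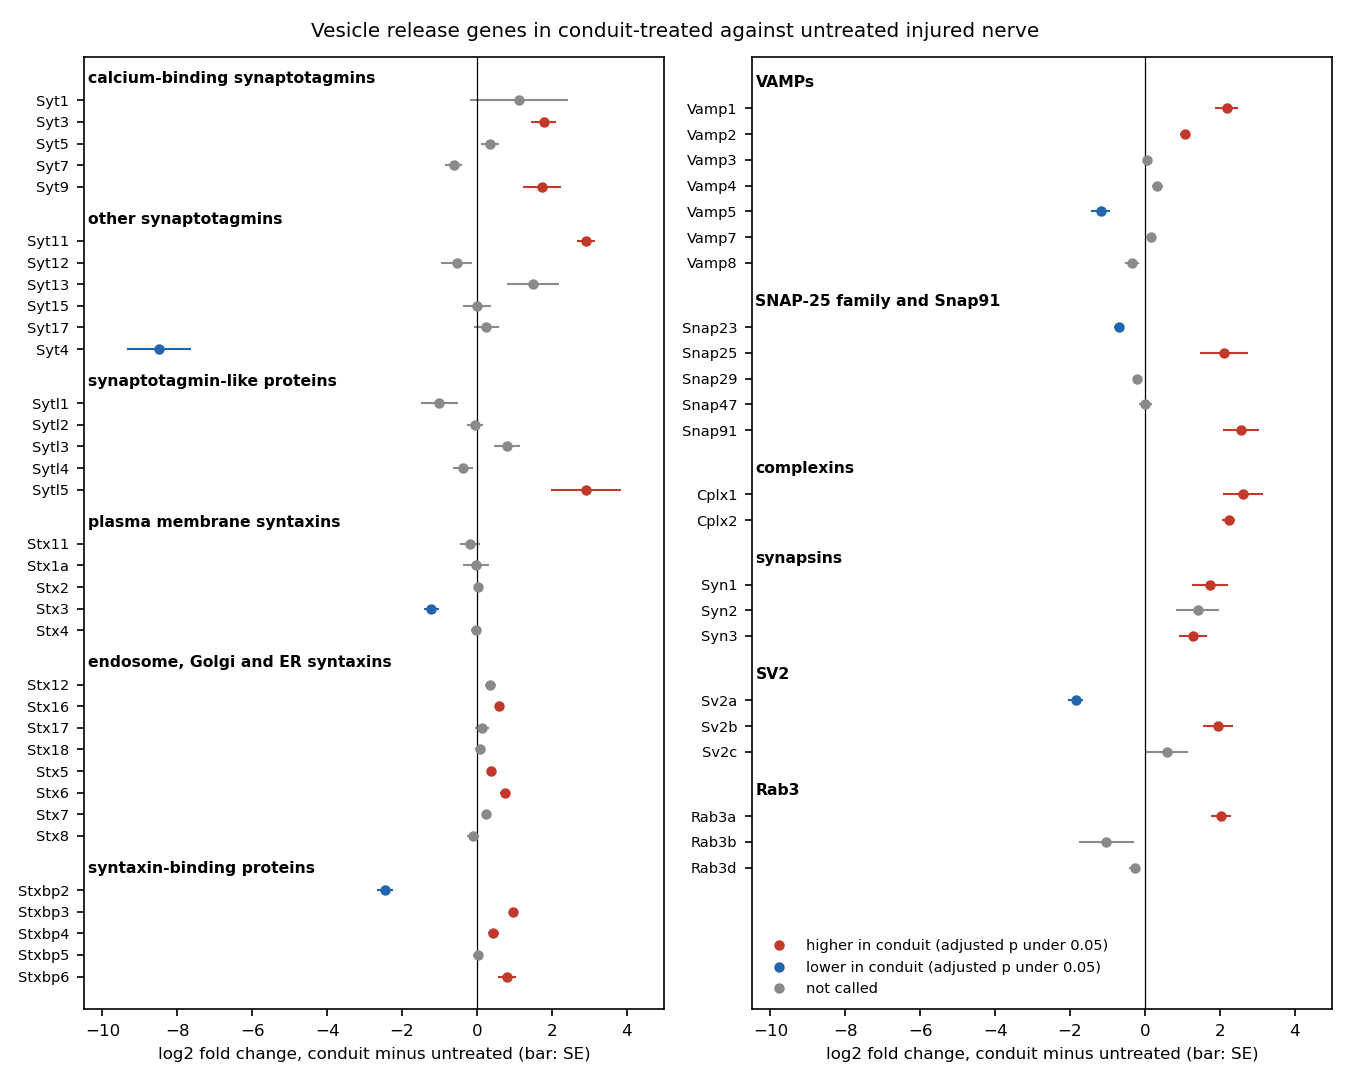
Log2 fold change (conduit minus untreated, horizontal axis, bar: SE) of 57 members tested, in 12 role groups, coloured by the edgeR call. Syt4 lies far to the left at -8.48, and the highest values, for Syt11 and Sytl5, are 2.92 and 2.91.

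**Figure D2:**
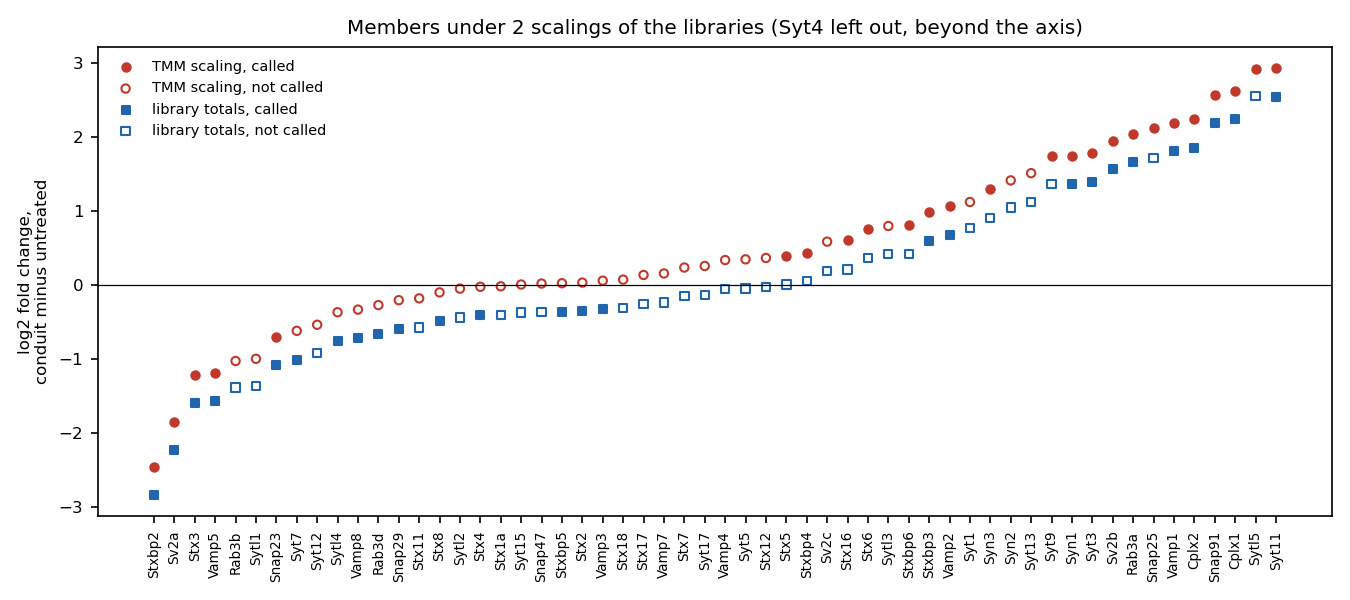
Log2 fold change (conduit minus untreated, vertical axis) of members tested, sorted, under TMM scaling and under library totals, with Syt4 left out because it lies beyond the axis. Values under library totals lie lower throughout, which moves the calls from 21 higher and 6 lower to 11 and 16.

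The synaptotagmins as a family exchanged their most abundant transcript. Syt4 encodes a vesicle protein whose first C2 domain does not bind calcium in the usual way and which is induced by activity in neurons. It was at 70.7, 272 and 87.8 CPM in untreated replicates 1, 2 and 3, and at 0.577, 0.0565 and 0.550 CPM in conduit replicates 1, 2 and 3. The conduit libraries hold 21, 2 and 21 Syt4 reads, against 3271, 13487 and 3817 in the untreated ones. Every untreated library was more than 100-fold above every conduit library, and untreated replicate 2 was the highest. Syt4 fell by 8.48 ± 0.86 (log2 ± SE; adjusted p = 0.000269), and fell by 7.62 without untreated replicate 2.

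Syt11, a second synaptotagmin that does not bind calcium and acts in vesicle retrieval, changed the opposite way. Its level was 22.9, 17.7 and 32.96 CPM in untreated and 182, 207 and 169 CPM in conduit replicates. The groups were wide apart, and Syt11 rose 7.59-fold in mean CPM (log2 2.92 ± 0.24, adjusted p = 0.000141). Per gene length, Syt4 ranked 4th of the members in untreated nerve and 57th in conduit nerve, and Syt11 moved from 22nd to 8th. Syt4 made up 71.8 ± 14.0% of the summed FPKM of all Syt genes in untreated nerve and 0.229 ± 0.174% in conduit nerve (mean ± SD of 3 libraries). Syt11 made up 13.3 ± 7.73% and 82.0 ± 0.879%. A sum chosen after the values were seen, Syt4 plus Syt11, was 80.0, 92.4 and 82.9% of Syt FPKM in untreated and 81.4, 82.9 and 82.3% in conduit libraries, so these 2 genes dominated the family in both groups. In absolute terms the sum was 25.6, 87.4 and 33.3 FPKM in untreated and 32.5, 36.2 and 31.5 FPKM in conduit libraries, which overlap.

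The calcium-binding synaptotagmins, which act as calcium sensors for fusion, reached at most 21.5 CPM in any library. Of 8, 5 were tested, 2 were higher and none was lower. Syt3, a plasma membrane synaptotagmin, was at 2.35, 1.51 and 2.76 CPM in untreated and 8.33, 9.21 and 5.29 CPM in conduit replicates. It rose by 1.78 ± 0.33 on the log2 scale (adjusted p = 0.00354), with no overlap. Syt9, a fast sensor in secretory cells, had 0.0864, 0.101 and 0.184 CPM against 0.385, 0.339 and 0.524 CPM. Its call (log2 1.73 ± 0.51, adjusted p = 0.0240) was lost in 5 of 6 fits that leave out a library (adjusted p of 0.0543 to 0.0878), all but that without untreated replicate 3. Syt5, the calcium sensor of the set with the highest mean FPKM, was at 3.43, 3.57 and 3.17 CPM against 4.51, 5.06 and 3.38 CPM, and the groups overlapped (0.34 ± 0.25, adjusted p = 0.278). Syt7, a slow sensor used in lysosome exocytosis, was lower in every conduit library (8.33 to 12.9 against 15.1 to 21.5 CPM) but was not called in the first fit (-0.62 ± 0.23, adjusted p = 0.0552). Syt7 was called lower with DESeq2 (-0.60, adjusted p = 0.0420) and under library totals (-1.01, adjusted p = 0.0098). The same held with replicate number as a block (-0.63, adjusted p = 0.0353) and in the 3 limma fits on FPKM (-0.93 to -0.54). Syt1, the main sensor for fast transmitter release, ran from 0 to 1.10 CPM over the 6 libraries and was not called. Syt2, Syt6 and Syt10 were too low to test, at 29, 9 and 4 reads over all libraries.

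Of the remaining synaptotagmins, Syt12, Syt13, Syt15 and Syt17 were tested and not called. Syt13, an atypical member, was at 0.281, 0.323 and 1.61 CPM in untreated and 1.87, 2.74 and 1.68 CPM in conduit replicates. The groups did not overlap, but untreated replicate 3 was close to the conduit libraries (log2 1.51 ± 0.69, adjusted p = 0.108). Without that library Syt13 was called higher (log2 2.78, adjusted p = 0.00394), and DESeq2 called it on all libraries (1.54, adjusted p = 0.0496). Syt8 and Syt14 were not tested, with 43 and 35 reads over all libraries, and Syt16 had no read.

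**Figure D3:**
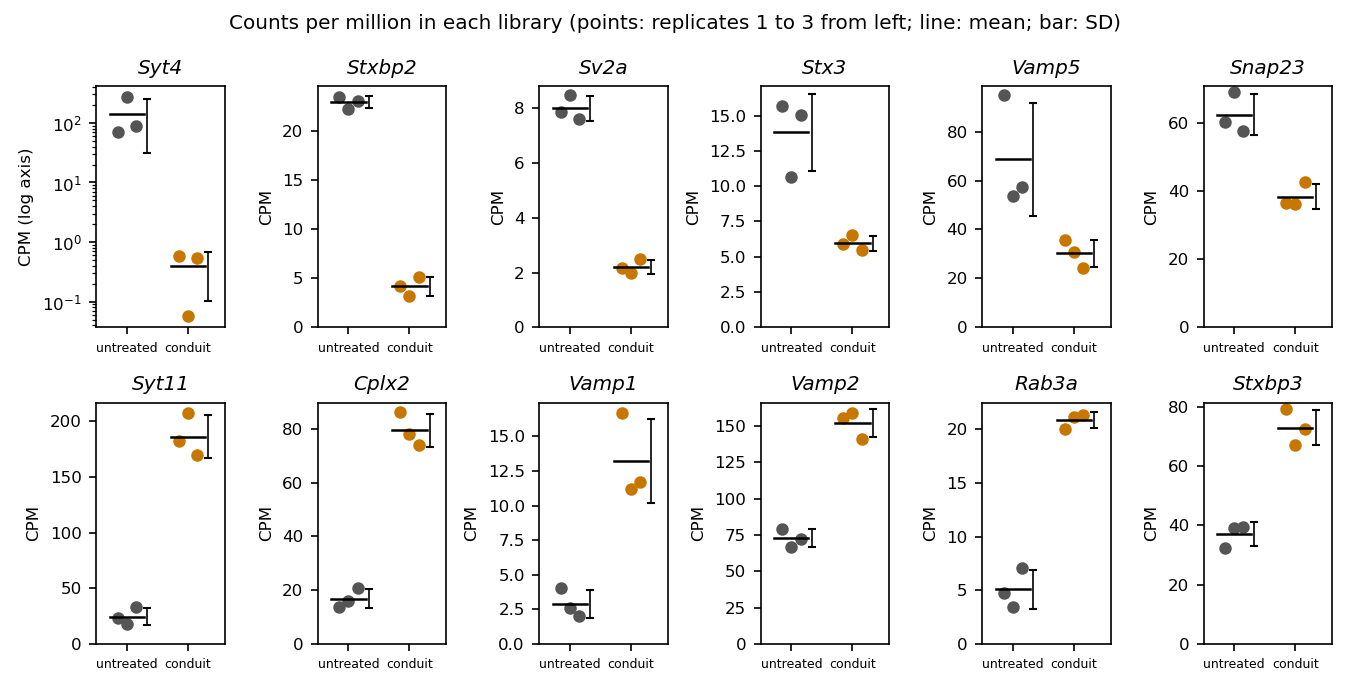
CPM in every library (points, 3 untreated and 3 conduit) with the group mean (line) and SD (bar) of 12 members, on linear axes from 0 except Syt4, whose axis is logarithmic. All 12 are called members. In each panel the untreated and conduit points do not overlap, as in 9546 of the 15464 genes tested, and the distance is widest for Syt4.

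The synaptotagmin-like proteins bind Rab27 and tether secretory granules. One of 5 was higher. Sytl5 was at 0.0432, 0.162 and 0.391 CPM in untreated and 0.440, 0.961 and 3.09 CPM in conduit replicates. Conduit replicate 3 stood highest, and the lowest conduit library was close to the highest untreated one. The rise of 2.91 ± 0.93 (adjusted p = 0.0341) lost its call without untreated replicate 1 (0.0763) or 2 (0.0895), or without conduit replicate 2 (0.0528) or 3 (1.85, adjusted p = 0.125), and was 3.82 without untreated replicate 3. Sytl4, which docks granules in secretory cells and had the highest mean FPKM of these genes, was at 3.87, 4.62 and 4.49 CPM against 2.80, 3.02 and 4.22 CPM, with overlap (-0.37 ± 0.26, adjusted p = 0.262). Sytl4 was called lower under library totals (-0.75, adjusted p = 0.0443) and in the 3 limma fits on FPKM (-0.70 to -0.38). Sytl1 (-0.998 ± 0.50), Sytl2 (-0.05 ± 0.20) and Sytl3 (0.79 ± 0.35) were not called.

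Plasma membrane syntaxins, the target SNAREs of exocytosis, changed little with TMM scaling except for Stx3. Of 7, 6 were tested and 1 was lower. Stx3, which serves membrane delivery in polarised cells and granule release in immune cells, was at 15.7, 10.7 and 15.1 CPM in untreated and 5.91, 6.53 and 5.45 CPM in conduit replicates. All conduit libraries were below all untreated ones, and Stx3 fell by 1.21 ± 0.20 (adjusted p = 0.00231). Mrpl16, which overlaps Stx3, was also called lower (-0.53 ± 0.13, adjusted p = 0.0121), and whether reads were shared was not tested. Stx4, the widely used syntaxin with the highest mean FPKM of the group, was at 59.0, 46.0 and 47.5 CPM against 53.4, 47.2 and 49.3 CPM, with overlapping groups (-0.03 ± 0.14, adjusted p = 0.891). Stx4 was called lower under library totals (-0.41, adjusted p = 0.0312) and in the 3 limma fits on FPKM (-0.40 to -0.38). Stx1a, a syntaxin of nerve terminals, was low in both groups. It was at 1.64 to 2.97 CPM in untreated and 1.83 to 3.00 CPM in conduit nerve (-0.02 ± 0.34, adjusted p = 0.968). Stx2 and Stx11 were not called either, and Stx19 had no read.

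The syntaxins of endosomes, the Golgi and the endoplasmic reticulum carry traffic inside the cell. Of 8 tested, 3 were higher and none lower, all by less than 2-fold. Stx6, which works between the trans-Golgi network and endosomes, was at 82.7, 90.4 and 88.8 CPM in untreated and 169, 140.4 and 133 CPM in conduit replicates (0.75 ± 0.13, adjusted p = 0.00310). Stx16, its partner on the same route, was at 30.5, 35.8 and 31.1 CPM against 52.4, 50.6 and 44.5 CPM (0.60 ± 0.13, adjusted p = 0.00621). Neither overlapped between groups, and both calls were lost under library totals. Stx5, the Golgi syntaxin, was at 43.9, 38.5 and 47.1 CPM against 60.6, 55.3 and 53.9 CPM. Its rise of 0.39 ± 0.12 (adjusted p = 0.0325) is about the size of the shift between scalings, and its call was lost with untreated replicates 1 (0.0628) and 2 (0.0555), and conduit replicates 1 (0.0938) and 2 (0.0736), each left out in turn. Stx12, an endosomal syntaxin, was at 103.5 to 123.5 CPM in untreated and 130.1 to 162 CPM in conduit nerve and was not called (0.36 ± 0.14, adjusted p = 0.0661). It was called higher without untreated replicate 2 (0.45, adjusted p = 0.0353) and with a filter of 5 CPM in 3 libraries (0.37, adjusted p = 0.0458). Stx7, Stx8, Stx17 and Stx18 lay between -0.10 and 0.23. Under library totals Stx8 was called lower (-0.49, adjusted p = 0.0333).

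Among the syntaxin-binding proteins, Stxbp2 fell and Stxbp3, Stxbp4 and Stxbp6 rose. Stxbp2 (Munc18-2), the family member used for granule release in cytotoxic lymphocytes, mast cells and platelets, was at 23.5, 22.3 and 23.1 CPM in untreated and 4.23, 3.19 and 5.16 CPM in conduit replicates. The untreated libraries lay within a narrow band, and the highest conduit library was far below it. Stxbp2 fell by 2.45 ± 0.20 (adjusted p = 0.000136). Stxbp3 (Munc18c), the form paired with Stx4 in many tissues, was at 32.4, 39.2 and 39.3 CPM against 79.1, 67.2 and 72.5 CPM and rose by 0.98 ± 0.13 (adjusted p = 0.000883). Neither gene overlapped between groups.

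Stxbp4, an adaptor that binds Stx4, was higher by 0.44 ± 0.15 (adjusted p = 0.0394), and the call was lost in 5 of 6 fits that leave out a library (0.0732 to 0.105), all but that without untreated replicate 2. Stxbp6 (amisyn), a SNARE-domain protein that restrains fusion, was higher by 0.81 ± 0.23 (adjusted p = 0.0220). Leaving out conduit replicate 1 (0.0619) or 3 (0.0646) ended that call. Stxbp5 (tomosyn), which competes with VAMPs, was at 33.3 to 40.9 CPM in untreated and 34.5 to 38.3 CPM in conduit nerve (0.02 ± 0.13).

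VAMPs are the SNAREs carried by vesicles. Of 7, 2 were higher and 1 lower. Vamp1, a synaptic form, was at 4.04, 2.60 and 2.05 CPM in untreated and 16.7, 11.2 and 11.7 CPM in conduit replicates, with no overlap. It rose 4.56-fold in mean CPM (log2 2.19 ± 0.31, adjusted p = 0.00111). Vamp2, the other synaptic form, which many secretory cells also use, was at 79.1, 66.8 and 72.2 CPM against 155, 159 and 141 CPM. It rose by 1.06 ± 0.12 (adjusted p = 0.000505), and the groups lay far apart. Vamp5, a form abundant in muscle, was at 95.1, 53.6 and 57.2 CPM in untreated and 35.6, 30.8 and 24.3 CPM in conduit replicates. It was highest in untreated replicate 1, the library with the most skeletal muscle transcripts. Vamp5 fell by 1.18 ± 0.25 (adjusted p = 0.00688), and fell by 0.88 without that library, still called. Vamp8, which serves late endosomes and regulated secretion, had the highest mean FPKM of all members. It was at 118, 78.8 and 92.8 CPM against 86.9, 77.9 and 64.9 CPM, and the groups overlapped (-0.33 ± 0.18, adjusted p = 0.170). Vamp8 was called lower under library totals (-0.72, adjusted p = 0.00873) and in the 3 limma fits on FPKM (-0.71 to -0.70). Vamp3 (0.06 ± 0.11), Vamp4 (0.33 ± 0.15) and Vamp7 (0.15 ± 0.14) were not called, and Vamp3 was at -0.33 under library totals.

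In the SNAP-25 family the ubiquitous and the neuronal form moved in opposite directions at very different levels. Snap23, the form of non-neuronal cells, was at 60.5, 69.3 and 57.8 CPM in untreated and 36.6, 36.2 and 42.6 CPM in conduit replicates, with no overlap, and fell by 0.70 ± 0.13 (adjusted p = 0.00351). Snap25, the form of nerve terminals and endocrine cells, was at 0.238, 0.363 and 0.115 CPM against 1.87, 0.678 and 0.602 CPM. These are 11, 18 and 5 reads against 68, 24 and 23, and conduit replicate 1 was the highest. The rise of 2.11 ± 0.64 (adjusted p = 0.0275) lost its call without untreated replicate 1 (0.0699) or 3 (0.0754), without conduit replicate 1 (log2 1.42, adjusted p = 0.112), and under library totals. Snap29, a form of intracellular membranes and autophagosomes, was at 68.4, 69.3 and 75.6 CPM against 60.2, 60.2 and 64.6 CPM. Snap29 did not overlap between groups and was not called (-0.21 ± 0.11, adjusted p = 0.144). It was called lower under library totals (-0.59, adjusted p = 0.00375) and in the 3 limma fits on FPKM (-0.59 to -0.56). Snap47 was at 0.02 ± 0.16. The clathrin adaptor Snap91, which retrieves synaptic vesicle membrane, was at 0.194, 0.101 and 0.253 CPM against 1.26, 1.24 and 0.759 CPM and rose by 2.56 ± 0.49 (adjusted p = 0.00401).

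Both complexins tested were higher. Cplx2, which is found in neurons and in secretory cells outside the nervous system, was at 13.9, 15.8 and 20.9 CPM in untreated and 86.2, 78.2 and 73.9 CPM in conduit replicates. The groups were far apart, and Cplx2 rose by 2.24 ± 0.18 (adjusted p = 0.000125). Cplx1, the form of fast synapses, was at 0.324, 0.404 and 0.345 CPM against 3.90, 1.19 and 1.57 CPM, with conduit replicate 1 highest. It rose by 2.62 ± 0.53 (adjusted p = 0.00541), and by 1.95 without that library. Cplx3 and Cplx4, known from retina, had 1 and 6 reads over all libraries.

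Synapsins coat synaptic vesicles and tie them to the cytoskeleton. Syn1 was at 1.01, 0.505 and 0.299 CPM in untreated and 2.12, 1.72 and 2.28 CPM in conduit replicates, without overlap (1.74 ± 0.48, adjusted p = 0.0196). Its call was lost by a small margin without untreated replicate 2 (0.0538) or conduit replicate 1 (0.0508). Syn3 was at 0.475, 0.404 and 0.598 CPM against 1.26, 1.41 and 0.943 CPM (1.29 ± 0.37, adjusted p = 0.0225), and the call ended when untreated replicate 1 (0.0639) or 2 (0.0552), or conduit replicate 1 (0.0664) or 2 (0.0829), was left out. Syn2 was not called (1.41 ± 0.57, adjusted p = 0.0732), except without conduit replicate 2 (1.81, adjusted p = 0.0299). The spans of Syn1 and Syn3 in RefSeq cover Timp1 and Timp3, inhibitors of matrix proteases with far more reads, and whether the counting used strand is not stated. Timp1 fell, from a mean of 408 to 102 CPM, opposite to Syn1, and Timp3 was not called (0.30 ± 0.21). Of the other genes within or across these spans, some rose as Syn1 and Syn3 did: Araf beside Syn1 from a mean of 54.0 to 108 CPM and Fbxo7 beside Syn3 by 0.86 ± 0.12 (log2). LOC102555453, which also overlaps Syn1, fell from a mean of 145 to 46.5 CPM. Whether reads were shared was not tested.

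The SV2 glycoproteins are transporter-like proteins of secretory vesicles, and 2 of the 3 moved in opposite directions. Sv2a, the target of levetiracetam, was at 7.86, 8.48 and 7.61 CPM in untreated and 2.17, 1.98 and 2.49 CPM in conduit replicates. Each group was narrow, and Sv2a fell by 1.85 ± 0.21 (adjusted p = 0.000439). Sv2b was at 0.929, 1.45 and 2.16 CPM against 6.16, 3.90 and 7.46 CPM and rose by 1.95 ± 0.40 (adjusted p = 0.00560), without overlap. Sv2c was not called (0.58 ± 0.57).

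Rab3 GTPases recruit vesicles to release sites. Rab3a, the main form of synaptic vesicles, was at 4.71, 3.47 and 7.06 CPM in untreated and 20.01, 21.2 and 21.4 CPM in conduit replicates, a clear separation. It rose by 2.04 ± 0.26 (adjusted p = 0.000739). The overlapping gene Mpv17l2 went the other way (-0.84 ± 0.20), and whether reads were shared was not tested. Rab3d, the form of exocrine and mast cell granules, was at 29.8 to 40.6 CPM in untreated and 29.3 to 30.6 CPM in conduit nerve (-0.27 ± 0.14, adjusted p = 0.143). Rab3b was not called (-1.03 ± 0.74), except with replicate number as a block (-1.09, adjusted p = 0.0444), and Rab3c had 4 reads in all.

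Per gene length, 40 members exceeded 1 FPKM in untreated nerve and 32 in conduit nerve, and 17 exceeded 10 FPKM in each group. Vamp8 led in both, at a mean of 132 and 80.1 FPKM. In untreated nerve Vamp5 (117 FPKM), Vamp3 (71.3 FPKM) and Syt4 (43.0 FPKM) followed. In conduit nerve Syt4 was at 0.0900 FPKM and Vamp2 at 42.5 FPKM, up from 26.5 FPKM. Of the genes of synaptic release, Snap25 (0.121 and 0.401 FPKM) and Syt1 (0.0661 and 0.113 FPKM) were near the bottom of the range in both groups. Cplx1 was also low (0.188 and 0.888 FPKM). Other forms known from synapses were higher, as Vamp2 shows, with Rab3a at 4.20 and 13.2 FPKM and Cplx2 at 3.72 and 13.4 FPKM.

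**Figure D4:**
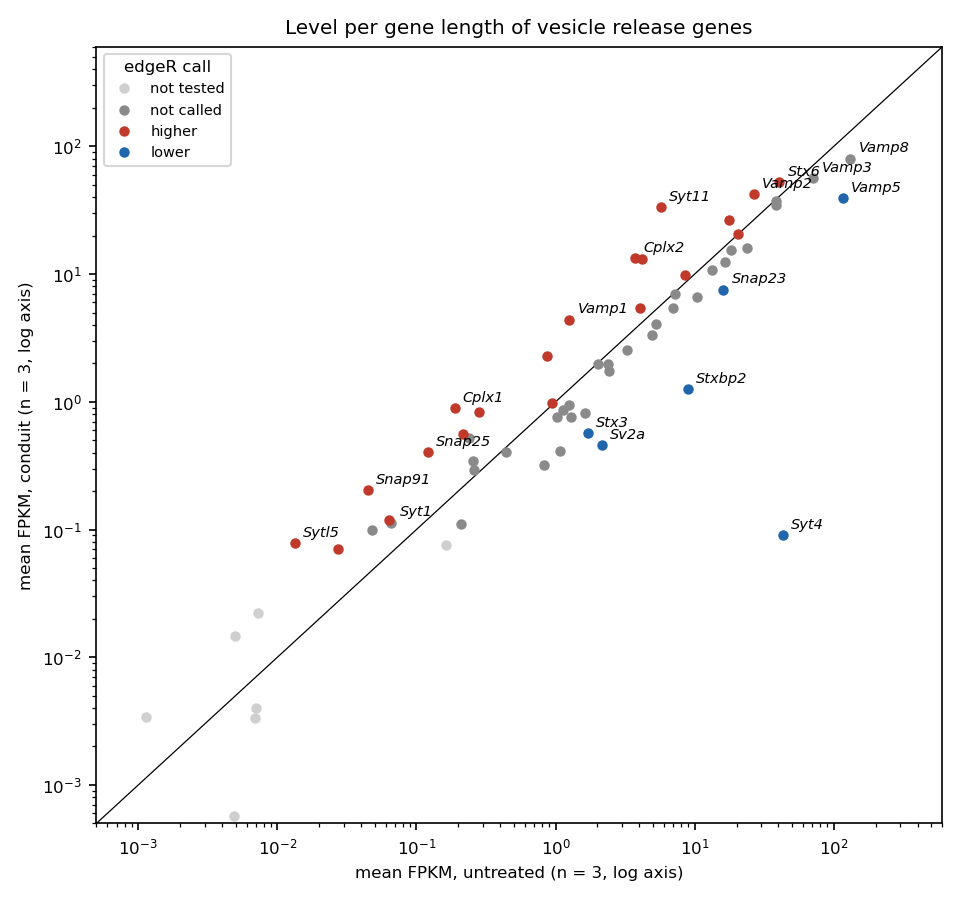
Mean FPKM of members in untreated (horizontal) and conduit (vertical) nerve, both on log axes, with the line of equal levels and colours for the edgeR call. Members at 0 in a group are among those left out, and Syt4 stands alone at the lower right, at 43.0 and 0.0900 FPKM.

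The makeup of families was compared as the share of their summed FPKM held by the forms known from neurons or, for synaptotagmins, by those that bind calcium. For the VAMPs, Rab3 GTPases and SNAP-25 type SNAREs that share was higher in every conduit library, and for the synaptotagmins the groups overlapped. Vamp1 and Vamp2 together held 12.1 ± 0.427% of the FPKM of Vamp1, 2, 3 and 8 in untreated and 25.5 ± 0.561% in conduit nerve. The Rab3a share of Rab3 FPKM was 26.4 ± 5.24% and 65.3 ± 1.37%. The Snap25 share of the SNAP-25 type SNAREs was 0.264 ± 0.135% and 1.45 ± 0.990%, so nearly all of this family was Snap23, Snap29 and Snap47 in both groups. For these 3 shares the two-sided exact permutation test gave p = 0.1, the smallest possible with 3 against 3 libraries, and 0.2 after adjustment over the 6 shares tested. The design cannot reach 0.05.

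Calcium-binding genes held 10.1 ± 4.47% and 12.9 ± 1.10% of Syt FPKM (exact permutation p = 0.5). The difference of 2.76 points became -2.41 points with counts, which are not divided by gene length, in place of FPKM. Library scaling cancels in such a share. In the Rab3 family the Rab3d share was 67.0% and 32.6% of FPKM, and library scaling has no part in this share either. Mean Rab3a was at 4.20 and 13.2 FPKM in untreated and conduit nerve, and mean Rab3d at 10.4 and 6.60 FPKM. Rab3d itself was not called with TMM, but it was called lower under library totals (-0.66, adjusted p = 0.00802), in the 3 limma fits on FPKM (-0.64 to -0.58) and without untreated replicate 1 (-0.39, adjusted p = 0.0377).

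**Figure D5:**
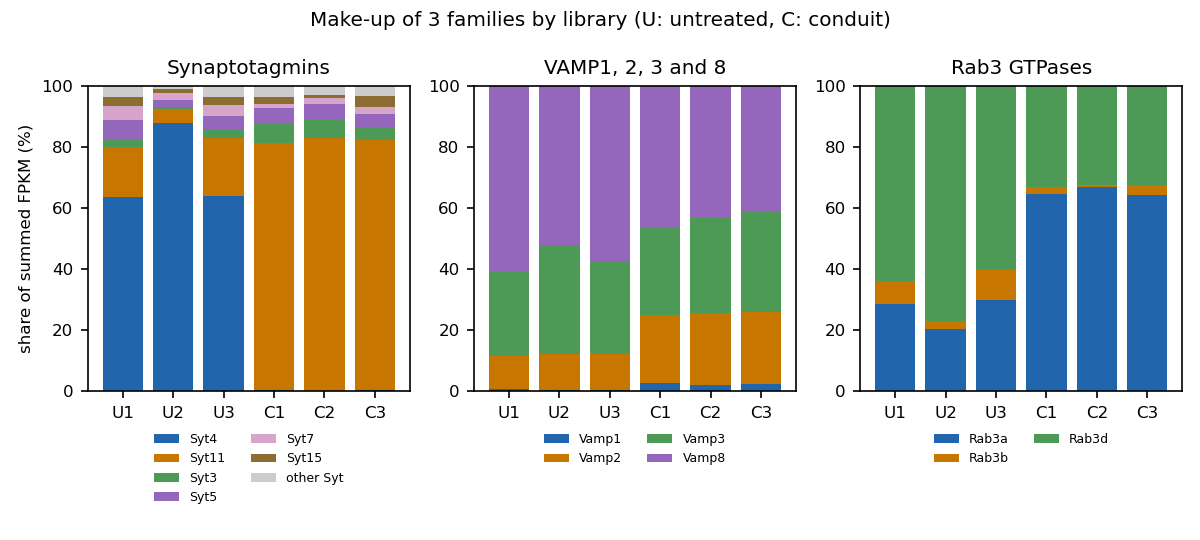
Percent of summed FPKM (vertical axis) held by each member in the 6 libraries (U1 to U3 untreated, C1 to C3 conduit) for synaptotagmins, VAMP1, 2, 3 and 8, and Rab3 GTPases. In every conduit library the shares of Syt4 and Rab3d lie below, and those of Syt11 and Rab3a above, all untreated libraries, while the Vamp3 share overlaps between groups at 31.1 and 30.96%.

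A list of 83 other genes of vesicle release and membrane traffic, which includes the SNARE-disassembling factors, active zone proteins, exocyst subunits, further SNAREs and vesicle membrane proteins, was read from the same fit. Of 75 tested, 18 were higher and 13 lower, 41.3% in all against 50.2% of all genes, with a median log2 fold change of 0.11. Higher calls were as frequent as among all genes (24.0%), and lower calls made up 17.3% against 26.2%. Under library totals 13 were higher and 29 lower, while 14.8% of all genes were higher and 42.4% lower. Without conduit replicate 2, 4 were lower, and without conduit replicate 3, 7. Lower calls of all genes also dropped in these 2 fits, from 4049 of 15464 to 2919 of 15910 and 3403 of 15881. Of the higher genes with the smallest adjusted p, Syngr3, a synaptic vesicle membrane protein, was at 2.22, 2.91 and 2.76 CPM in untreated and 20.6, 18.4 and 19.2 CPM in conduit replicates (2.88 ± 0.18, adjusted p = 7.82e-05). Sec22c, a SNARE relative of the endoplasmic reticulum, rose from 11.8, 9.93 and 19.6 CPM to 165, 147 and 139 CPM (3.45 ± 0.27, adjusted p = 0.000125). The exocyst subunit Exoc2 rose by 1.01 ± 0.11 (adjusted p = 0.000334). Of the lower genes, myoferlin (Myof), a membrane repair protein, fell by 1.46 ± 0.12 (adjusted p = 0.000142). Unc13d (Munc13-4), which primes granules in cytotoxic lymphocytes and other blood cells, fell by 1.54 ± 0.22 (adjusted p = 0.00113). Anxa2, a calcium-dependent membrane binding protein, fell by 0.62 ± 0.14 (adjusted p = 0.00771), a call lost without conduit replicate 2 (0.0589).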

How the data were processed

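The authors deposited raw counts per gene and FPKM values (scaled by gene length and library total) for 6 libraries. The tools named in the submitters' processing notes are fastp, HISAT2, HTSeq and DESeq2, and the build is mRatBN7.2; versions, roles and strandedness are not given in the sources used here. The deposited FPKM of genes detected in 2 or more libraries followed from the count, the library total and 1 length per gene (20504 of 20504 genes, tolerance 1e-04). No column was left unused (0 columns).

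Counts were tested with the quasi-likelihood test of edgeR 4.0.16 (R 4.3.3), two-sided, on 15464 genes kept by filterByExpr (minimum count 10), with TMM scaling and group as the only term. Calls are at a Benjamini-Hochberg adjusted p under 0.05 over all genes tested. SE was taken as the size of the log2 fold change over the root of the F statistic. CPM uses library totals times TMM factors. Family shares were compared by exact permutation of the 6 libraries. The edgeR, DESeq2 and limma fits were also run on simulated counts, with limma on CPM in place of FPKM. That simulation changed few genes, unlike these data, and did not cover the permutation of shares. Whether libraries came from separate animals is not stated, so p-values measure the spread between libraries, which may be technical. No pair of libraries was identical.

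Values in every library are given for up to 3 called members per role group with the smallest adjusted p, for the member with the highest mean FPKM, and for Syt4 and Snap25. Of the other list, up to 3 called genes per direction are named. The members, lists and rules were chosen with earlier results of these data known. Marker symbols Mcpt1 and Mylpf were matched to Mcpt1l1 and Myl11 through RefSeq GRCr8. Also tried were RLE scaling, library totals, DESeq2 1.42.0, other filters, robust dispersions, the replicate block, limma 3.58.1 on log2(FPKM + 1 or 0.1), and each library left out. Some genes and shares that the rules name are not reported here, though counts over the members include them.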

Additional observations from a re-analysis of the deposited data

How the results depend on the processing

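Of the 27 members called, 9 higher (Cplx2, Rab3a, Snap91, Stxbp3, Sv2b, Syt3, Syt11, Vamp1 and Vamp2) and all 6 lower kept their call in every alternative that tested them. Members called higher, 21 with edgeR and TMM, numbered 11 with library totals, 13 with a filter of 5 CPM in 3 libraries (36 members tested), 9 with limma on log2(FPKM + 1), 9 with a pseudocount of 0.1 and 13 without the FPKM filter. Members called lower, 6 in the first fit, numbered 16, 14, 14 and 15 with library totals and the 3 limma fits. The limma fits tested 43, 43 and 67 members. Of all genes they called 2044 of 13161, 2034 of 13161 and 2254 of 22050 higher, and 6020, 6016 and 6263 lower. The 5 CPM filter called 3013 of 11491 genes higher. Leaving out each library gave 14 to 20 higher and 6 to 7 lower members, while 2921 to 3774 of all genes were higher and 2919 to 4108 lower. The other vesicle release genes, 18 higher and 13 lower, gave 11 higher with the 5 CPM filter, and 8, 8 and 11 higher and 26, 26 and 26 lower with the limma fits. Library totals gave 29 lower, and leaving out each library gave 17 to 22 higher and 4 to 13 lower. DESeq2 called 22 of 62 members higher and 7 lower, and of 17693 genes 4094 higher and 4294 lower. FPKM is scaled by library totals, which moves the median of all genes by -0.39, and the limma fits move it by -0.34 to -0.38.

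Signs turned together with a gained call for Snap47 (-0.30 and -0.36, limma with pseudocounts of 1 and 0.1), Stx18 (-0.29, limma without filter), Stx2 (-0.35) and Stxbp5 (-0.36) with library totals, and Vamp3 (-0.33 with library totals, -0.32, -0.33 and -0.32 with limma), none of them called at first. Library totals also turned the signs of Snap47, Stx7, Stx12, Stx17, Stx18, Syt5, Syt15, Syt17, Vamp4 and Vamp7, to -0.37 to -0.03, without a call, and some other uncalled members near 0 turned in 1 or more of the remaining fits. The calcium-binding share of synaptotagmins went to -2.41 points with counts not divided by gene length, while library scaling cancels in that share. Same-numbered libraries of the 2 groups correlated in their deviations at 0.14, -0.03 and 0.06, and other pairs at -0.15 to 0.10. With 3 libraries per group this does not settle whether the numbers pair them. The replicate block gave 18 higher and 8 lower members, with 24 calls kept, 3 lost and 2 gained, and 3622 higher and 3892 lower of 15464 genes. Depth limits the 10 untested members and those under 1 CPM.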
